A study of Mus musculus with 10 samples.

Results

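The genes described here are 100 genes whose RNA fell in control reprogramming and stayed near its starting level when FoxO6 was added. They were chosen by their measured values: x is log2(TPM + 1), where TPM is RNA abundance scaled to transcript length and library size, and the change of an arm is the mean x of days 5 and 7 minus x of day 0. Genes whose mean TPM over the 10 libraries was 5 or more (the expressed genes) and whose change in the FoxO6 arm lay between -0.5 and 0.5 were kept, and the 100 with the lowest change in the control arm were taken. They are 100 of 6211 genes that could have been taken, of 11491 expressed genes and of 50600 genes in all. The values at days 0, 5 and 7 are therefore given as a description with no test, and only days 1 and 3 were not used for the 2 changes.

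The cells were mouse embryonic fibroblasts (MEFs) with an Oct4-GFP reporter, made from embryos of strain CBA/CaJ X C57BL/6J at embryonic day 13.5. Both arms received retroviruses for Oct4, Klf4 and Sox2 (OKS) and grew in iCD1 medium. The control arm, called DR, also received the red fluorescent protein DsRed, and the other arm received FoxO6. RNA was sequenced at days 0, 1, 3, 5 and 7, each arm giving 1 library a day, so no single day has a replicate check, and the libraries of 1 arm may share an infected culture. The day 0 libraries carry the arm labels too. Foxo6 had a TPM of 0.61 to 2.29 in the DR libraries and of 762 to 1360 in the FoxO6 libraries, day 0 included.

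Fibroblasts that are turned into pluripotent cells by these factors lose much of their mesenchymal expression, including matrix, contractile and signalling genes, before the pluripotency network is switched on. FoxO factors are forkhead proteins that bind DNA and are known as regulators of stress resistance, metabolism and autophagy downstream of insulin signalling. FoxO6 is the member of the family that stays mostly in the nucleus.

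The libraries held between 1208379 and 2225750 expected counts, and the control library of day 0, the start point of the selection, was the shallowest. All 12 fibroblast markers, of which Dcn is a member, were measured. Their summed TPM at days 0, 1, 3, 5 and 7 was 5680, 4060, 2580, 1480 and 1410 in DR. With FoxO6 it was 5950, 3080, 2610, 2460 and 1830. The 12 epithelial markers summed to between 88.7 and 849 in DR and to between 39 and 232 with FoxO6, and the 8 pluripotency markers to between 3.09 and 318 and between 0.71 and 54.2. The 12 endothelial markers, with Sox17 at 0 in all libraries, summed to between 28.3 and 61.6 in DR and to between 37.8 and 143 with FoxO6. The 12 macrophage markers summed to between 18.2 and 62.5 in DR and to between 23.9 and 33 with FoxO6. The 12 muscle markers, with Myog, Myf5 and Myf6 at 0 in all libraries, summed to between 11.3 and 148 and between 26.1 and 276, and the 12 nerve and glia markers to between 501 and 1130 and between 191 and 410. The part of these shifts in the members' values was not tested. In bulk RNA, fewer cells of a type and less RNA per cell cannot be told apart.

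Promoters of the members are shown first, since FoxO6 is a DNA-binding factor. RefSeq promoter windows on GRCm38.p6, from 250 bases before to 50 after the gene start, were matched to 68 of the 100 members. The forkhead letters GTAAACA, on either strand, stood in 2 of these 68 (2.94%), beside 3.65% of the 32851 windows in the table and 2.89% of those of expressed genes. The 2 members were Il33, an alarmin cytokine, and Vkorc1, the vitamin K epoxide reductase. Their stretches upstream of the start read as follows 5′ to 3′ on the strand of the gene, with the match in capitals, at chr19:29924911-29924997 on the plus strand and chr7:127895702-127895788 on the minus strand.
Il33: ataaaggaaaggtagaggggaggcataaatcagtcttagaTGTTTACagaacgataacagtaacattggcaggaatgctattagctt
Vkorc1: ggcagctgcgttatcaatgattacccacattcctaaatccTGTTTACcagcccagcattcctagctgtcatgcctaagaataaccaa
The AP-1 letters TGANTCA stood in 4 of the 68 windows (5.88%), in 7.81% of all windows and in 5.81% of those of expressed genes. They are shown for Il1rn and Met, 2 of the members with the largest early difference between the arms, at chr2:24336679-24336765 and chr6:17463863-17463949, both on the plus strand, with the match again in capitals.
Il1rn: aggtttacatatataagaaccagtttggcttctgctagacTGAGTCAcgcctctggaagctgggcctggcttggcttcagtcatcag
Met: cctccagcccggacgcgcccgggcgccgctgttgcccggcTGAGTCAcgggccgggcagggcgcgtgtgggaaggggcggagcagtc
The matches began 141 bases before the start of Il1rn and 54 before that of Met. The TEAD letters GGAATG were found in 15 windows (22.1%, beside 14.7% of all windows), the E-box CACGTG in 9 (13.2%, beside 7.15%) and the CArG box in 1 (1.47%, beside 1.63%). Among expressed genes the E-box stood in 12.1% of windows, the TEAD letters in 14.2% and the CArG box in 1.64%. These are matches of letters within a short window and not measured binding.

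The members split by where the arms stood at day 0 and where they ended. At day 0, 24 members were already more than 2-fold lower with FoxO6 than in DR, where 4.2% of all expressed genes were, and 2 were more than 2-fold higher (7.87% of expressed genes). By the end, 44 members at day 5 (7.69% of expressed genes) and 47 at day 7 (6.67% of expressed genes) were more than 2-fold higher with FoxO6, and 28 were so on both days. The median difference of FoxO6 minus DR, in log2(TPM + 1), ran from -0.57 at day 0 through 0.04 and 0.16 at days 1 and 3 to 0.92 and 0.95 at days 5 and 7, and that of expressed genes from 0.11 through 0.00, 0.01 and 0.03 to -0.13. The rule fixes much of this movement, since it asks for a fall in one arm and none in the other. For 56 members the control library of day 0 was the highest of all 10. Of the 24 members that began lower, none was more than 2-fold higher with FoxO6 on both late days and 8 were on 1 of these days. On CPM (counts scaled to library size only, by TMM), 18 of the 24 were more than 2-fold lower at day 0. For 37 members the difference was under 2-fold, or in the other direction, at both days 5 and 7.

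**Figure D1:**
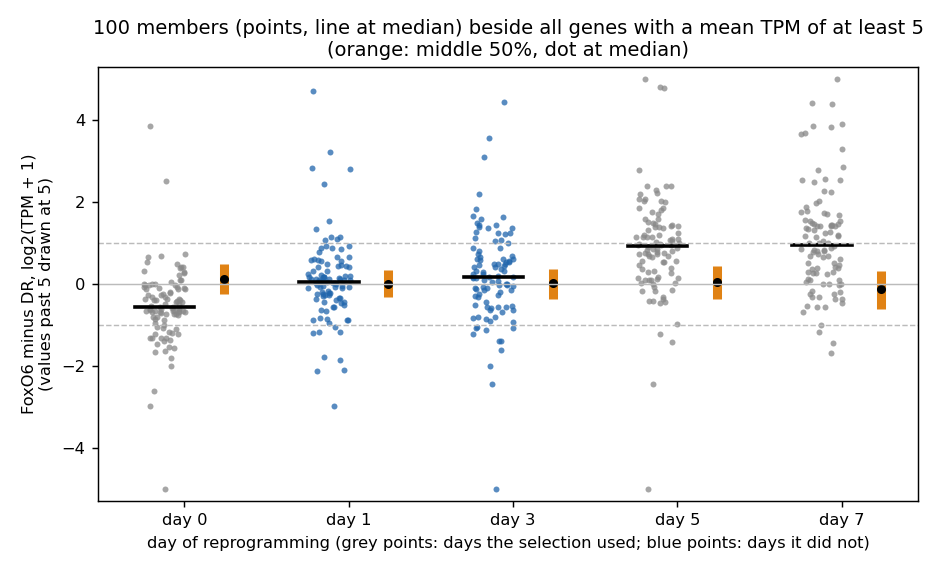
Difference between the arms, FoxO6 minus DR in log2(TPM + 1), for the 100 members at each day (1 point per member, black line at the median), beside the median and the middle 50% of the 11491 expressed genes. The members' median goes from -0.57 at day 0 to 0.95 at day 7, with 0.04 and 0.16 at days 1 and 3, which entered the selection only through the mean TPM.

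The same selection with the arms swapped, for genes that fell with FoxO6 and were held in DR, took 100 of 5436 genes. There 24 genes were more than 2-fold higher with FoxO6 at day 0 (7.87% of expressed genes) and 2 were lower (4.2%). By the end, 22 of the swapped set at day 5 (7.8% of expressed genes) and 60 at day 7 (12.7%) were more than 2-fold lower with FoxO6.

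**Figure D2:**
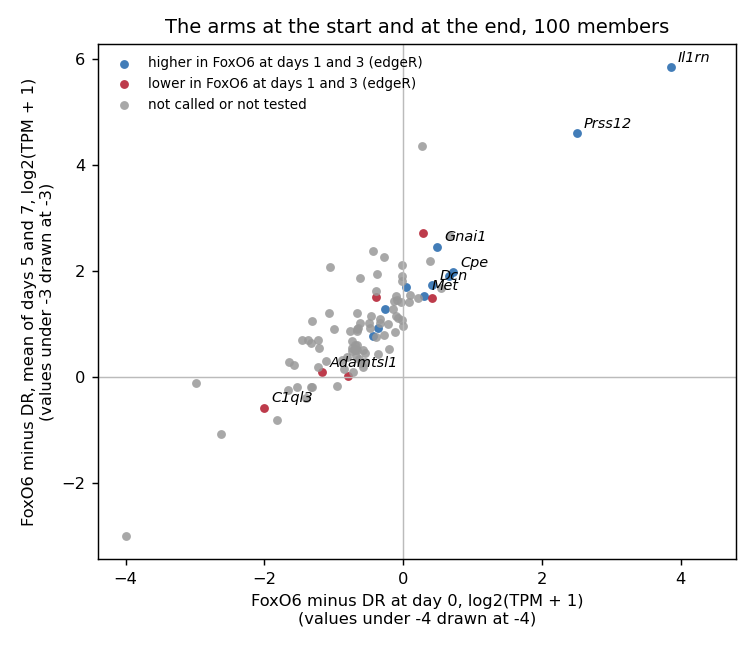
Each member's difference between the arms at day 0 (horizontal axis) and as the mean of days 5 and 7 (vertical axis), FoxO6 minus DR in log2(TPM + 1), with edgeR calls from days 1 and 3 in colour. Il1rn and Prss12 lie far to the right at day 0, the points on the left began lower with FoxO6, and the rule itself pushes all points up from the diagonal.

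At days 1 and 3, which the selection did not use for the changes, the arms were compared in 2 ways. On TPM, 11 members were more than 2-fold higher with FoxO6 at day 1 (5.39% of expressed genes) and 9 were lower (6.47% of expressed genes). At day 3, 22 were higher (5.62% of expressed genes) and 11 were lower (8.42% of expressed genes). With a pseudocount of 5 in place of 1, 13 members were higher at day 3 (3.4% of expressed genes), and of the 66 members that the rule also takes on CPM, 7 were higher at day 1 and 17 at day 3. The 6211 genes that could have been taken gave 3.57% higher on each of these days, and 3.41% and 3.86% lower at days 1 and 3, so the members' shares were above those of this pool in both directions. The 100 genes of the selection with the arms swapped gave 7 higher and 14 lower with FoxO6 at day 1. At day 3 they gave 6 higher and 18 lower, so shares above those of this pool were not particular to the members. The mean TPM that set the pool of genes was taken over all libraries, days 1 and 3 included.

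On counts, a shift between the arms shared by days 1 and 3 was fitted by edgeR's quasi-likelihood test, with a term for the day and 1 residual degree of freedom. Among the 80 members past its filter, 11 were higher with FoxO6 (13.8%, beside 6.59% of the 11085 genes tested) and 6 were lower (7.5%, beside 7.44%) at an adjusted p under 0.05. The prior had 55.3 degrees of freedom, so the variance behind these p-values came mostly from a value shared over genes. A gene's own part was only how its arm difference varied between days 1 and 3. The p-values thus describe 4 libraries of 2 time courses and do not measure a spread between cultures. DESeq2 called 4 of the 100 members higher (Cpe, Il1rn, Met and Prss12), beside 0.643% of the 19765 genes with any read in these libraries. It called 2 lower (Adamtsl1 and Slco2a1), beside 0.83%, so the other 11 calls are edgeR's alone. The 19765 genes include those that edgeR's filter removed for few reads, so these shares are not set on the same genes as those of edgeR. Without the day term, edgeR called 3 members higher, Il1rn, Met and Prss12 (0.198% of genes tested), and none lower (0.135%), with 37 calls among all genes in place of 1555. The members called lower by edgeR were thus about as frequent as among all genes.

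**Figure D3:**
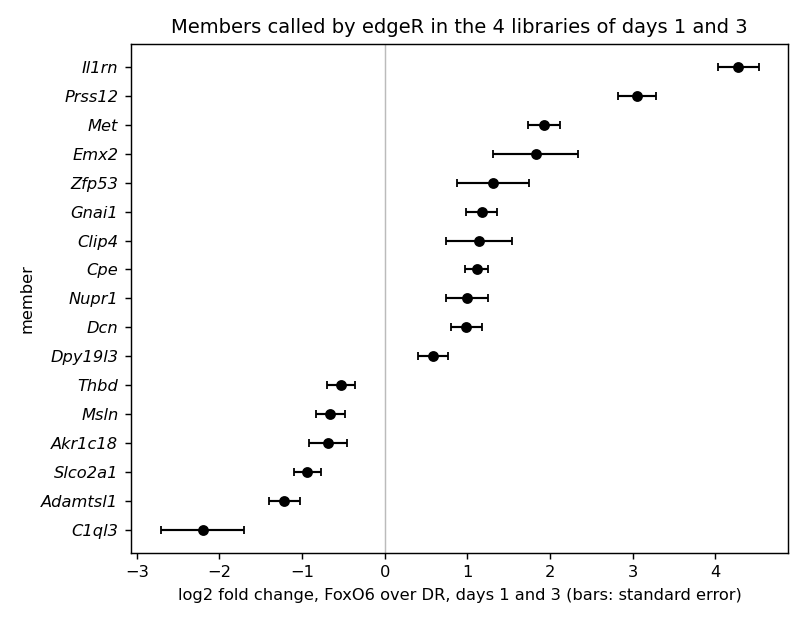
Log2 fold change of FoxO6 over DR in the 4 libraries of days 1 and 3 for the 17 members edgeR called, with the standard error as bars. Il1rn at 4.28 and Prss12 at 3.05 are farthest to the right, 11 members lie above 0 and 6 below it.

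Secreted factors, matrix proteins and cell surface proteins were 16 of the members and held 9 of the 17 called members, 5 of them higher with FoxO6 (6.59% of genes tested) and 4 lower (7.44%). At day 3, 10 of the 16 were more than 2-fold higher with FoxO6 (5.62% of expressed genes) and 1 was lower (8.42%), and their median difference was 1.41, beside 0.16 over all members. At day 1, 3 were higher (5.39% of expressed genes) and 2 lower (6.47%), with a median of 0.10. The role groups were formed after the values had been seen, so these counts are a description.

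Il1rn (chromosome 2, 24336853 to 24351494), the secreted antagonist of the interleukin 1 receptor, had the largest difference of the called members. Its TPM in DR was 8.61, 20, 11.7, 6.32 and 0.53 at days 0, 1, 3, 5 and 7, from 1 to 22 reads a library. With FoxO6 it was 138, 193, 273, 248 and 147. The arms did not overlap, and Il1rn was already higher with FoxO6 at day 0, by 3.85 in log2(TPM + 1). Over days 1 and 3 its log2 fold change was 4.28 (standard error 0.25, edgeR adjusted p = 4.44e-21). The read ratio at day 3, scaled to library size, was 35.6 (95% exact interval 19.2 to 74.7).

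Prss12, which encodes neurotrypsin, a secreted serine protease that cleaves agrin, showed the same arrangement. In DR its TPM was 4.87, 8.84, 13.5, 1.15 and 0.4 at days 0, 1, 3, 5 and 7, and with FoxO6 it was 32.1, 68.5, 122, 57.9 and 29. Its reads in DR numbered 1 to 25. The 2 arms again did not overlap at any day, and the peak of both was at day 3. Over days 1 and 3 the log2 fold change was 3.05 (standard error 0.23, edgeR adjusted p = 3.71e-16). Il1rn and Prss12 were the 2 members that stood more than 2-fold higher with FoxO6 at day 0.

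Met, the receptor tyrosine kinase for hepatocyte growth factor, began at like levels in both arms. In DR its TPM was 29.2, 22.1, 17.1, 18.8 and 6.09 at the 5 days in order. With FoxO6 it was 36.1, 66, 63.5, 50.4 and 21.6, so it stood above its start at days 1, 3 and 5 and below it at day 7. The log2 fold change over days 1 and 3 was 1.93 (standard error 0.19, edgeR adjusted p = 7.89e-12). At day 3 the read ratio was 5 (95% exact interval 3.82 to 6.65), from 62 and 410 reads. The day 3 difference of Met was 1.83 on TPM and 2.30 on CPM, both in log2 units.

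Cpe (chromosome 8, 64592542 to 64693054) encodes carboxypeptidase E, which trims the ends of peptide hormone precursors, and was the member with the most reads. Its TPM in DR fell from 299.7 at day 0 through 242.9, 203.3 and 93.7 to 85.8 at day 7. With FoxO6 it was 492.5, 446.8, 533.3, 433.6 and 294.9. Every FoxO6 library was above the DR library of the same day, and the lowest FoxO6 value, at day 7, was just under the DR value of day 0. Its log2 fold change over days 1 and 3 was 1.11 (standard error 0.14, edgeR adjusted p = 4.89e-09). The read ratio was 1.83 (95% exact interval 1.62 to 2.08) at day 1 and 2.65 (2.33 to 3.02) at day 3.

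Dcn, decorin, a small proteoglycan that binds collagen fibrils, was the member held in the list of 36 fibroblast and matrix genes. Its TPM in DR was 95.8, 113, 41.2, 37.2 and 30.9, and with FoxO6 it was 128, 168, 125, 123 and 107. The drop in DR thus came between days 1 and 3, and no such drop was seen with FoxO6. Over days 1 and 3 the log2 fold change was 0.99 (standard error 0.19, edgeR adjusted p = 9.26e-05). Most of that list did otherwise: 28 of its 36 genes fell more than 2-fold by the change of the rule in DR and 27 did so with FoxO6, 25 of them in both, and 1, Dcn, fell in DR and was held within 0.5 with FoxO6. Over the expressed genes 1027 fell in DR, 1109 with FoxO6 and 589 in both. At days 1 and 3 edgeR called 9 of the 36 higher with FoxO6 and 13 lower, beside 6.59% and 7.44% of all genes tested.

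**Figure D4:**
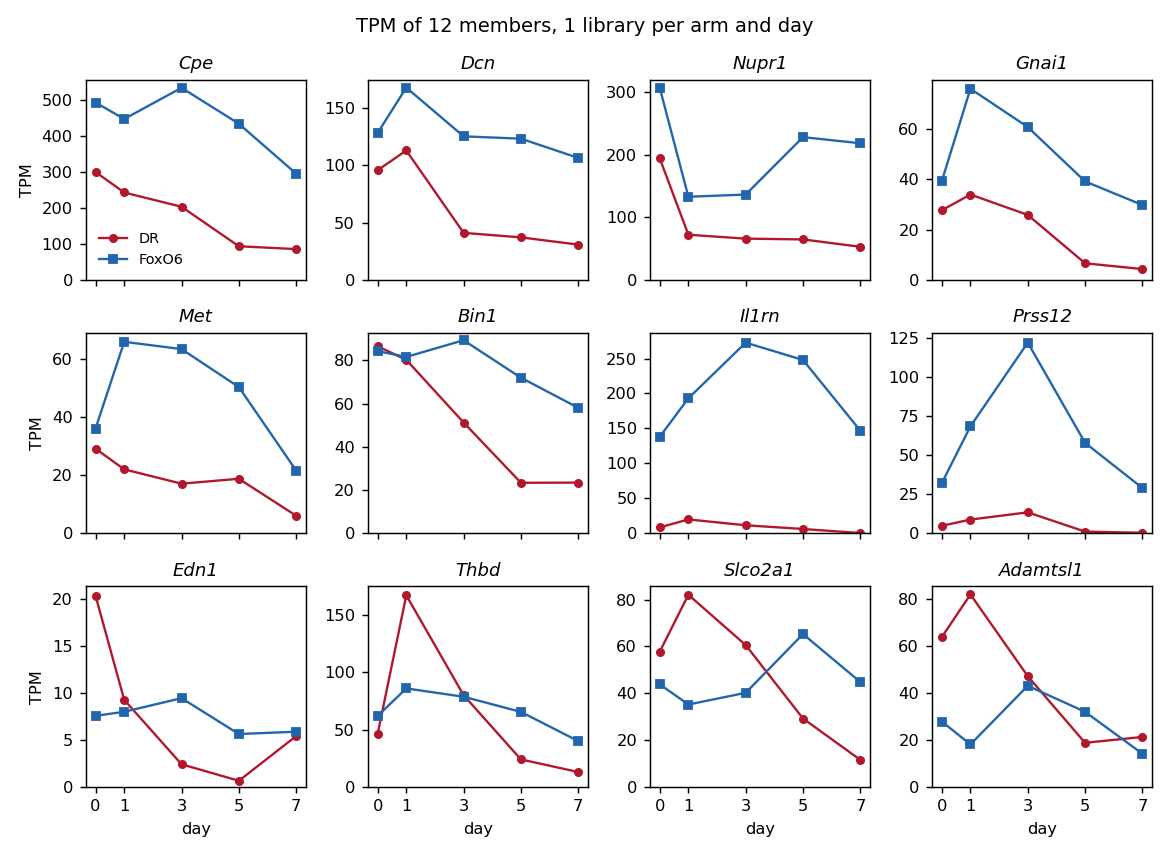
TPM at days 0, 1, 3, 5 and 7 in DR (red circles) and FoxO6 (blue squares) for 12 members, 1 library per point and a scale of its own for each gene. The arms of Il1rn and Prss12 are apart from day 0, those of Met and Gnai1 separate by day 1, and in Thbd and Slco2a1 DR is above FoxO6 at day 1 and below it at days 5 and 7.

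Of the 24 members that began lower with FoxO6, 3 were more than 2-fold higher at day 3 (5.62% of expressed genes) and 7 were lower (8.42%). The 3, Edn1, Vegfc and Il33, encode secreted signals, had few reads, and are described here because of these values. Edn1, the vasoconstrictor peptide endothelin 1, had a TPM of 20.4, 9.26, 2.4, 0.64 and 5.4 in DR and of 7.56, 7.99, 9.44, 5.62 and 5.87 with FoxO6. Vegfc, a growth factor of lymphatic vessels, had 12.8, 8.3, 4.02, 1.22 and 4.74 in DR and 4.94, 10.6, 12.5, 8.27 and 2.58 with FoxO6. Il33 peaked at day 1 in both arms, at 18.9 in DR and 14.7 with FoxO6, and stood at 1.66 and 6.2 at day 3. On TPM each of the 3 was more than 2-fold lower with FoxO6 at day 0 and more than 2-fold higher at day 3. On CPM the day 0 difference was -1.42 for Edn1, -1.13 for Il33 and -0.42 for Vegfc, whose effective length at day 0 in DR was 0.505 of the other libraries. Their DR reads at day 3 were 4, 7 and 3, and the 95% exact intervals of the read ratio began at 1.34 for Edn1 and Vegfc and at 1.07 for Il33. None passed the edgeR test over days 1 and 3 (adjusted p = 0.541 for Edn1, 0.543 for Vegfc and 0.64 for Il33). Tspan4, a tetraspanin, had a TPM of 21.5 in DR and 52 with FoxO6 at day 3 and a read ratio of 2.61 (1.57 to 4.54), and did not pass the edgeR test either (adjusted p = 0.0564).

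Edn1, Vegfc and Met are also the 3 members among 30 genes of migration and angiogenesis. Of the 26 genes of that list that edgeR tested, 6 were higher with FoxO6 at days 1 and 3 (6.59% of genes tested) and 3 were lower (7.44%). The list's median difference, FoxO6 minus DR, was 0.17 at day 0 and 0.07, 0.29, 0.75 and 0.18 at days 1, 3, 5 and 7, so that the day 7 value was close to the start. Of its 25 expressed genes, 4 fell more than 2-fold in DR while held with FoxO6, as did 177 of the 11491 expressed genes. These are the changes that chose the members, and the list was chosen with earlier results known, so the count is a description only.

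In 6 members edgeR called FoxO6 lower over days 1 and 3, although DR was the arm that fell later. They were 7.5% of the members tested, beside 7.44% of all genes tested, so such calls were not particular to the members. Thbd, thrombomodulin, the thrombin receptor of the vessel wall, had a TPM of 46.1, 167, 80.1, 23.9 and 12.9 in DR and of 61.9, 86, 78.7, 65.5 and 40 with FoxO6. DR thus climbed to a peak at day 1 before it fell, and the FoxO6 values moved within a narrower range. Its log2 fold change over days 1 and 3 was -0.53 (standard error 0.17, edgeR adjusted p = 0.0212), with a read ratio of 0.512 at day 1 and 0.994 at day 3.

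Slco2a1, the prostaglandin transporter, followed a like course, with a TPM of 57.7, 82.1, 60.5, 29.2 and 11.5 in DR and of 43.8, 35.2, 40.1, 65.3 and 44.8 with FoxO6. The arms crossed between days 3 and 5. Akr1c18, a hydroxysteroid dehydrogenase that inactivates progesterone, had 31.1, 114, 100.4, 10.2 and 0.9 in DR and 38.1, 54.7, 82.5, 32.2 and 26.3 with FoxO6. It rose in both arms first and was close to 0 only in DR at day 7, where it had 1 read. The log2 fold changes over days 1 and 3 were -0.94 (standard error 0.16) for Slco2a1 and -0.69 (standard error 0.23) for Akr1c18, with edgeR adjusted p = 9.15e-06 and 0.0321.

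The other 3 members called lower, Msln, Adamtsl1 and C1ql3, were lower with FoxO6 from day 0 and did not end more than 2-fold higher. Msln, mesothelin, a cell surface protein of mesothelium, started at a TPM of 170.4 in DR and 97.3 with FoxO6, and ended at 77.6 and 77.8. Both arms came down, by a change of -1.27 in DR and -0.45 with FoxO6, which is inside the limit of the rule. Adamtsl1, a matrix protein related to the ADAMTS proteases but without their catalytic domain, had 63.7, 81.8, 47, 18.7 and 21.2 in DR and 27.8, 18, 43, 31.9 and 14.1 with FoxO6. C1ql3, a secreted C1q-like protein, started at 16.3 in DR and 3.3 with FoxO6 and ended at 3.95 and 4.97, and its log2 fold change over days 1 and 3 was -2.20 (standard error 0.51, edgeR adjusted p = 9.48e-04).

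Stress response, autophagy and growth control genes were 11 members, of which edgeR called 1, higher with FoxO6, where 6.59% of all genes tested were called higher and 7.44% lower. Nupr1, a small nuclear protein induced by cell stress, started at a TPM of 194 in DR and 307 with FoxO6, and had dropped in both arms by day 1, to 72.3 and 133. From there DR went to 66.1, 64.8 and 53 and FoxO6 to 136, 228 and 218. Nupr1 was thus not kept with FoxO6 throughout, and its FoxO6 level was nearer to its start at days 5 and 7 than at days 1 and 3. Its log2 fold change over days 1 and 3 was 0.99 (standard error 0.26, edgeR adjusted p = 0.00359). Nupr1 was the highest by mean TPM of 12 members with a FoxO6 value more than 2-fold below its own day 0 at day 1 or day 3.

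Among the others of this group, Rps27l, a ribosomal protein relative induced by p53, went from 646 to 268 in DR and from 440 to 349 with FoxO6 between days 0 and 7. Card19, a mitochondrial protein with a caspase recruitment domain, went from 169 to 70.7 in DR and from 153 to 189 with FoxO6. Dap, a death-associated protein that restrains autophagy, started at 224 and 222 and ended at 79.9 and 147. None of the 3 passed the edgeR test at days 1 and 3, with adjusted p = 0.91, 0.512 and 0.724, and log2 fold changes of 0.05, 0.24 and 0.13. Fbxo8, an F-box protein, and Cgrrf1, a ring finger protein, were more than 2-fold higher with FoxO6 at day 3 as well as at days 5 and 7, and edgeR called neither.

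G proteins, regulators of small GTPases and cytoskeletal proteins were 11 members, with 2 higher (6.59% of genes tested) and none lower (7.44%) by edgeR. Gnai1 (chromosome 5, 18265135 to 18360355), an inhibitory G protein alpha subunit, had a TPM of 27.7, 34, 25.9, 6.65 and 4.35 in DR and of 39.3, 76, 60.8, 39.2 and 29.8 with FoxO6. Its values with FoxO6 were above those of DR at every day and its log2 fold change over days 1 and 3 was 1.17 (standard error 0.19, edgeR adjusted p = 3.17e-06). Clip4, of a family of microtubule-binding proteins, had 9.69, 5.62, 3.77, 2.56 and 2.32 in DR and 9.99, 8.83, 12.3, 13.3 and 7.55 with FoxO6. Its adjusted p was 0.046 from edgeR, from 11 to 48 reads a library at days 1 and 3.

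Bin1, a membrane-curving amphiphysin, started at like levels in both arms, which parted from day 3 on. It stood at 86.6 and 84.3 at day 0 and at 80.3 and 81.6 at day 1, in DR and with FoxO6, and then at 51.3 and 89.3 at day 3, 23.4 and 72 at day 5 and 23.5 and 58.1 at day 7. The read ratio at day 3 was 1.76 (95% exact interval 1.34 to 2.33), and the edgeR test over days 1 and 3 was not passed (adjusted p = 0.216). Abracl, a small actin regulator, came down from 258 to 80.3 in DR and from 162 to 141 with FoxO6, and DR was the higher arm until day 3. Of the 36 small GTPase regulators listed, none was a member, and edgeR called 4 of 31 higher (6.59% of genes tested) and 2 lower (7.44%).

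Metabolic and mitochondrial proteins were the largest group, with 19 members, and held 1 call in each direction, Dpy19l3 and Akr1c18, near the 6.59% higher and 7.44% lower of all genes tested. Nsdhl, an enzyme of cholesterol synthesis, started at a TPM of 160.5 in DR and 95.7 with FoxO6, and ended at 43.4 and 68.4. Fh1, fumarase, went from 104 to 38.3 in DR and from 62.9 to 58.5 with FoxO6, and Nnmt, which methylates nicotinamide, from 31.1 to 7.31 and from 28.1 to 21.3. On CPM the change of Fh1 was -0.54 in DR and -0.49 with FoxO6, so the loss in DR alone was not seen on counts, and its effective length at day 0 in DR was 0.686 of the other libraries. In Nsdhl and Fh1 the DR level of day 0 was the highest of all libraries. Prodh and Pycr1, the enzymes that break down and make proline, were both over 2-fold lower with FoxO6 at day 0 on TPM and had at most 21 reads in a library. On CPM this difference was -0.66 for Prodh, whose effective length at day 0 in DR was 0.549 of the other libraries, and -1.51 for Pycr1. Dpy19l3, a C-mannosyltransferase, was called higher on reads, with a ratio of 1.3 at day 1 and 1.88 at day 3, but its TPM at day 1 was lower with FoxO6, at 31.5 beside 47.5 in DR. Reads and TPM thus went in opposite directions for it at day 1, and on CPM it fell in both arms, with changes of -1.69 in DR and -1.01 with FoxO6.

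Transcription, RNA and chromatin genes were 12 members, 7 of them with under 20 reads in DR at day 0. Emx2, a homeobox factor of forebrain and urogenital development, had a TPM of 14.1, 3.24, 3.96, 5.11 and 3.6 in DR and 10.2, 7.95, 14.7, 5.14 and 12.2 with FoxO6. Zfp53, a zinc finger protein, had 17.1, 6.62, 8.23, 4.39 and 5.15 in DR and 14.1, 15.2, 22.6, 13.3 and 12.9 with FoxO6. Both were called higher at days 1 and 3 by edgeR (6.59% of genes tested), with log2 fold changes of 1.83 (standard error 0.52, adjusted p = 0.00907) and 1.31 (standard error 0.43, adjusted p = 0.0303). Both had fallen in DR by day 1, while Emx2 with FoxO6 was as low as DR at day 5. The FoxO6 value of Emx2 at day 7 rested on 5 reads, and on CPM its change was -1.48 with FoxO6 and -1.71 in DR, so that on counts it fell in both arms. Khdrbs3, an RNA-binding splicing regulator, went from 60.2 to 15.8 in DR and from 38.8 to 33.6 with FoxO6 over the 5 days. Transport and other membrane proteins were 13 members, with Slco2a1 as their 1 call, in the direction where 7.44% of all genes tested were called.

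By the time of their loss in DR, 23 members were more than 2-fold below day 0 at day 1, in log2(TPM + 1), a further 20 were so at day 3 and the other 57 only after day 3. Taken day by day, 23 members were below day 0 at day 1 (5.63% of expressed genes) and 35 at day 3 (7.21%), and the rule used the same day 0 value. Between days 1 and 3, 13 members fell more than 2-fold in DR (4.64% of expressed genes) and 12 did with FoxO6 (3.9% of expressed genes). With at least 20 reads in 1 of both libraries the counts were 7 of 62 members in DR (3.75% of expressed genes with such reads) and 5 of 69 with FoxO6 (2.62%). The median step was -0.31 in DR and -0.12 with FoxO6, beside 0.01 and 0.03 over expressed genes.

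With FoxO6, 75 members stayed within 2-fold of their own day 0 at all 4 later days. Of the rest, 12 dipped and 10 rose more than 2-fold at day 1 or 3, and 5 moved as far at day 5 or 7, with 2 genes in 2 of these groups. Akr1c18, Prss12, Vegfc and Il33 were among those that rose. In these 4 a FoxO6 level near its start at days 5 and 7 went with a passing change. Taken day by day, 7 members were more than 2-fold above and 6 below their FoxO6 day 0 at day 1 (7.39% and 5.38% of expressed genes). At day 3, 5 were above and 9 below (10.8% and 6.87%), so such changes were not particular to the members.

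The 3 members with the lowest change in DR had uncertain values. Rpl30-ps9, a processed pseudogene of a ribosomal protein gene, ranked first with a change in DR of -4.86. Its TPM was 589, 0, 388, 411 and 0 in DR and 0 in all FoxO6 libraries, so it was held only at 0. Reads of a processed pseudogene can be assigned to its parent or another copy, and its values are uncertain. Rps10-ps2, also a processed pseudogene, had at most 14 reads in any library. Lbhd1 came next, with a TPM in DR of 80.5 at day 0 and 4.58 at day 7, from 28 and 14 reads, and its effective length at day 0 in DR was 0.176 of the median of the other libraries. It shares exon positions on the same strand with 3 other genes. In all, 13 members had an effective length at day 0 in DR more than 1.5 times shorter than in the other libraries, and 0 had one more than 1.5 times longer, and 87 of the 100 changes in DR were below -1 on CPM too. With FoxO6, 13 changes lay outside 0.5 on CPM, 2 of them below -1.

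Reads behind the members were few. In DR at day 0, 35 members had under 20 reads, beside 26.7% of expressed genes, and the median was 27.1 reads beside 44.9. The members' median effective length was 1807 bases beside 2487. By biotype in GENCODE M21, 88 were protein coding and 12 were not, beside 94.7% coding among all. Exons of 5 members overlapped another gene on the same strand and those of 32 a gene on the opposite strand, among them Bin1, Prss12, Emx2 and Slco2a1. Whether the counting used strand is not given in the sources used here, so reads of such pairs may not be told apart.

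The limit of the selection fell between near-equal genes. The 2 members just inside were Fam111a and Mmadhc with changes in DR of -1.21 and -1.20, and the 2 genes just outside were Rftn2 and Gm12481, both with -1.20. When 1 setting of the selection was changed, between 33 and 87 of the 100 members were taken again, and 3 members, Abracl, Khdrbs3 and Gm9747, were taken under all 11 changes. Gnai1 was taken under 10 and Cpe, Nupr1 and Bin1 under 9. Other members described above were taken less often, with Met, Thbd, Msln and Vegfc under 5, Il1rn under 4 and Emx2 under 3.

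**Figure D5:**
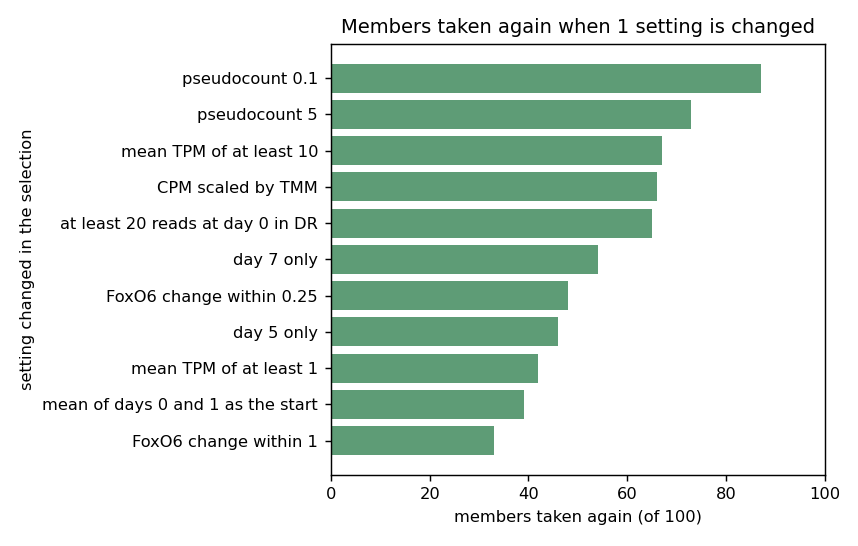
Number of the 100 members that the selection took again when 1 of its settings was changed (11 changes, 1 bar each). A pseudocount of 0.1 kept 87, a wider limit of 1 on the FoxO6 change kept 33, and the mean of days 0 and 1 as the start kept 39.

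The lists used here of genes known for FoxO factors held no member. Members outside these lists, such as Atg16l2 and Dap, are placed with autophagy in the role groups. Of 30 reported FoxO target genes, 28 were tested at days 1 and 3, and edgeR called 13 higher with FoxO6 and 0 lower, beside 6.59% and 7.44% of all genes tested. Of 40 autophagy and lysosome genes, 23 were called higher and 1 lower. Both lists were already apart at day 0, where the median difference of FoxO6 minus DR in log2(TPM + 1) was 0.81 for the FoxO targets and 0.61 for the autophagy and lysosome genes, beside 0.11 over expressed genes. At days 1 and 3 these medians were 0.59 and 0.60 for the FoxO targets and 0.51 and 0.55 for the autophagy and lysosome genes. By the change of the rule, 2 genes of each list fell more than 2-fold in DR, and none of these was held within 0.5 with FoxO6. Of the 30 actin and contraction genes listed, 18 fell more than 2-fold in DR and 21 with FoxO6, 18 of them in both, and edgeR called 2 of the 28 tested higher and 6 lower at days 1 and 3. The 20 YAP and TEAD target genes gave 6 higher and 2 lower of 19 tested, and the 22 genes of TGF beta signalling 4 higher and 2 lower of 19. Of the 23 pluripotency genes 4 were tested, with 1 higher, Klf5, and 0 lower. That list's median difference, FoxO6 minus DR, was 0.0 at days 0 and 1 and -0.39, -0.61 and -1.22 at days 3, 5 and 7. The actin, YAP and TEAD, TGF beta and pluripotency lists held no member either.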

How the data were processed

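RNA of 10 libraries (2 arms, 5 days) was measured, and samples were grouped by the arm and day in their labels. The authors aligned reads with RSEM and Bowtie2 to the GENCODE M13 transcriptome on mm10. They deposited expected counts (RSEM estimates, not normalized), TPM computed from the same estimates, and effective lengths, which served here to compare transcript lengths between libraries. The methods and the labels name different library kits. The series-wide table gives identical expected counts for 48476 of the 50600 genes.

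Python 3.11.15 with pandas 2.3.3 and scipy 1.17.1 applied the selection and computed differences in log2(TPM + 1). On that scale changes of low genes are understated, and a difference over 1 was called 2-fold. R 4.3.3 with edgeR 4.0.16 fitted the rounded expected counts of days 1 and 3 (TMM, filterByExpr, Benjamini-Hochberg over all genes tested), and DESeq2 1.42.0 was an alternative. On simulated counts of 11085 genes, 198 of 200 genes changed 4-fold were recovered with 12 false calls. The simulation gave every gene the fit's common dispersion of 0.016 and no day effect, and changed only genes above a floor of mean CPM. It therefore checks that the fit runs as intended and does not show how it does on genes with few reads or on real variation between days. Read ratios carry exact Clopper-Pearson 95% intervals, which cover counting error only. The other settings tried were pseudocounts, CPM, read and TPM filters, size factors and day terms. Depth ran from 1208379 to 2225750 expected counts with a median of 1601151.

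The members and lists were chosen with earlier results of these data known. Members named are those in a gene list, the 12 lowest changes in DR, the 12 highest mean TPM at days 1 and 3, those edgeR called and those at the limit. Other members, the role groups and the class of an equal start were chosen after their values were seen. Coordinates are from GENCODE M21 on GRCm38, and promoters are from RefSeq on GRCm38.p6.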

Additional observations from a re-analysis of the deposited data

Results flagged for a closer look

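Adamtsl1 moved in opposite directions in the 2 arms between days 1 and 3, days that entered the selection only through the mean TPM. Its log2(TPM + 1) changed by -0.79 in DR and by 1.21 with FoxO6, from 295 and 189 reads in DR and from 103 and 149 reads with FoxO6. On CPM, which does not use transcript length, the steps were -0.62 in DR and 0.27 with FoxO6. The difference between these steps was not tested, since 1 library per arm and day leaves no residual degree of freedom for it.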

How the results depend on the processing

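Of the 100 members the selection took again 66 on CPM scaled by TMM, 42 with a mean TPM of at least 1, 65 with at least 20 reads at day 0 in DR, 48 with a FoxO6 change within 0.25, 33 with a change within 1, 46 with day 5 only, 54 with day 7 only and 39 with the mean of days 0 and 1 as the start. Among the counts at days 1 and 3, a pseudocount of 5 took the members higher with FoxO6 at day 3 from 22 to 13, and those that fell from day 1 to day 3 with FoxO6 from 12 to 6. With at least 20 reads in a library, the members that fell between these days numbered 7 in DR and 5 with FoxO6. Among the 66 members that CPM also takes, a check added after seeing the data, 7 were higher at day 1 and 8 fell between days 1 and 3 in DR. DESeq2 called 6 members in place of 17 and edgeR without the day term called 3. The cause of these moves was not tested, apart from the smaller number of members under the read filter and on CPM. Of 40 such settings 24 kept the count within 1.5 times. The edgeR fit of all 10 libraries is not among them, since it tests the days that chose the members and is no check of the 17 calls. For the day 3 difference of single named members 72 settings gave 1 change of sign, that of Cpne8 from -0.08 to 0.38 on CPM and within its counting interval, and 3 moves beyond the counting interval, all on CPM: Dpy19l3 to 0.90, Adamtsl1 to -0.74 and Met to 2.30. At this depth 35 members had under 20 reads at day 0 in DR, the shallowest library, so their start level rests on few counts.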
